A study of Mus musculus with 12 samples.

Results

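The genes described here are Vdr, Padi4, Nebl, Trpm6, Gpm6b, Cd68, Lgals3, Nrbp2 and Cxxc5. They were chosen by their log2 signals, which lay near the bottom of the scale in naive or PD1-low CD4 T cells and were bright in PD1-intermediate cells or follicular helper T cells (Tfh), so the contrast of those groups chose them and is given as a description without a test. All 9 were among the 9893 genes tested, and 16 of the 45101 probe sets of the array measured them. A gene entered the test when 1 of its probe sets reached log2 5 on at least 2 of the 12 arrays, and all of the 9 but Gpm6b passed only through groups in which they were bright. Those that started low therefore had to differ between groups, and no count over the 9 stands as support for a difference.

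The 12 arrays measured sorted CD4+ cells from S1pr2V/+ mice, in which 1 allele of S1pr2, a sphingosine-1-phosphate receptor gene, carries the fluorescent reporter Venus. Per the labels every group was taken 10 days after CGG in the adjuvant CFA was given under the skin, although the design text also mentions control mice, so it is not certain that the naive donors had been immunized. From lymph node, Venus-high Tfh (3 arrays) and Venus-low Tfh (3 arrays) were sorted as CXCR5+, PD1-high and CD44-high cells, PD1-intermediate T helper (Th) cells (2 arrays) as CXCR5+, PD1-intermediate and CD44-high, and PD1-low Th cells (2 arrays) as CXCR5-low, PD1-low and CD44-high. Naive CD4 T cells (2 arrays) came from spleen and were sorted as CD44-low cells of naive surface phenotype. All sorts also left out cells stained by a dump gate. Each array held the pooled cells of 2 to 6 mice and 20 ng of total RNA was amplified for it. The number of arrays limits the precision, and p-values measure the spread between these pools. In bulk samples fewer cells that express a gene and less RNA per cell cannot be told apart.

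Cxcr5, the gate gene, had mean signals of 2.71, 5.96, 13.75, 13.54 and 14.27 (log2) in naive, PD1-low, PD1-intermediate, Venus-low and Venus-high cells, and Pdcd1, which encodes PD1, had 5.52, 7.09, 12.88, 14.04 and 14.74. Cd44 was lowest in naive cells (7.01) and at least 11.78 in the other groups, and S1pr2 had 6.34, 7.41, 9.31, 10.25 and 12.89, in the order of the Venus gates. By the quantiles of their values the arrays fell into 3 sets that the labels do not name, with 3, 4 and 5 arrays. Set 1 held replicate 1 of both Tfh groups and naive replicate 1. Set 2 held replicate 2 of both Tfh groups, PD1-low replicate 1 and naive replicate 2. Set 3 held replicate 3 of both Tfh groups, PD1-low replicate 2 and both PD1-intermediate arrays. A probe set is called displaced when, after the groups are taken into account, 1 array set stands above or below both other sets by more than 3 log2 units. This held for 3315 probe sets in set 2, for 542 in set 1 and for 234 in set 3. Of the 16 probe sets described here 1 was displaced, a probe set of Nebl that does not stand for its gene. The values of the genes are therefore given array by array and within sets.

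Naive CD4 T cells that meet antigen raise CD44. Those that gain CXCR5 can enter the B cell follicle, and those with the most PD1 are the Tfh cells that select B cells in germinal centres, where S1pr2 helps to keep them. The 9 genes do not belong to 1 pathway. Vdr encodes the vitamin D receptor, a nuclear receptor that activated T cells can express. Padi4 encodes a peptidylarginine deiminase, known for converting histone arginines to citrulline in neutrophils. Cd68 encodes a lysosomal glycoprotein and Lgals3 encodes galectin-3, a lectin that binds beta-galactosides, and both are commonly used as macrophage markers. Trpm6 encodes an ion channel fused to a kinase that takes up magnesium in gut and kidney, Gpm6b a membrane proteolipid of neurons and glia, and Nebl nebulette, an actin-binding protein of heart muscle. Nrbp2 encodes a pseudokinase of the nuclear receptor binding protein family, and Cxxc5 a protein with a CXXC zinc finger that binds unmethylated CpG.

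The plot of the signals on each array shows where each gene left the low end of the scale. With the groups ordered as naive, PD1-low, PD1-intermediate, Venus-low and Venus-high, the largest step between neighbouring group means was that from PD1-low to PD1-intermediate cells for 4 genes (Nebl, Trpm6, Vdr and Gpm6b) and that from PD1-intermediate cells to Venus-low Tfh for 5 genes (Lgals3, Nrbp2, Cxxc5, Padi4 and Cd68). It was the step from naive to PD1-low cells for 0 and the step from Venus-low to Venus-high Tfh for 0. The place of Vdr was not firm, in part because signals below log2 5 have no order. It moved to the Venus-low step with such values set to log2 5, with the arrays quantile normalized again and with the mean of its probe sets. With the mean of probe sets Cxxc5 moved to the Venus-high step. Placing genes by the first group above a level, or by the first large rise, put Padi4 or Cd68 at an earlier sort.

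**Figure D1:**
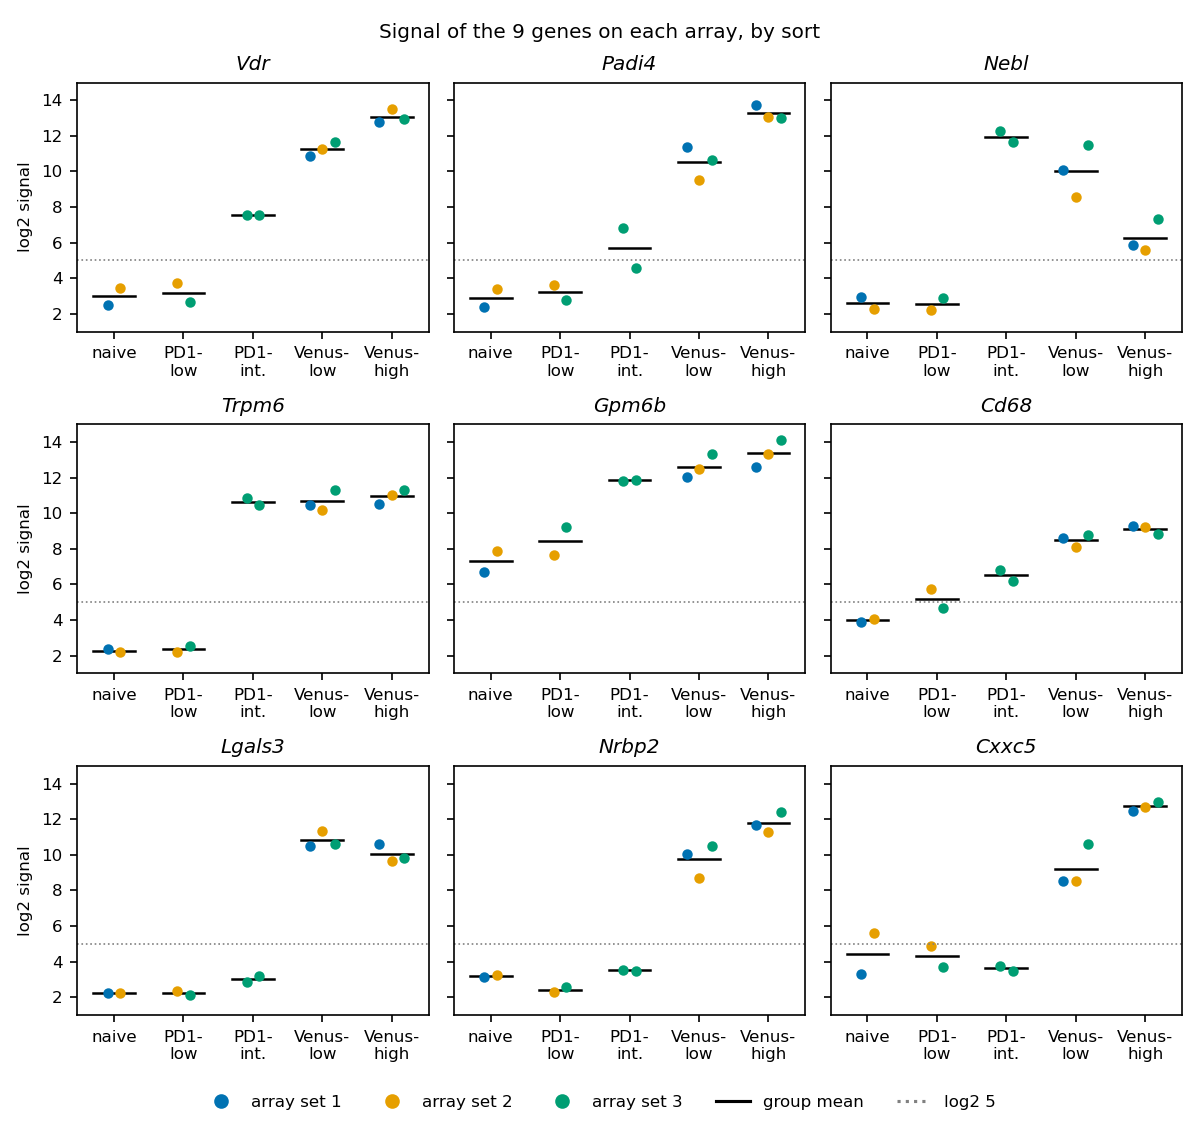
Log2 signal of each of the 9 genes (vertical axis) on each of the 12 arrays, by sort (horizontal axis), with 1 point per array coloured by array set, a bar for the group mean and a dotted line at log2 5. Nebl and Trpm6 lie above log2 10 in both PD1-intermediate arrays, Lgals3, Nrbp2 and Cxxc5 lie below log2 5 there and above 8 in all Tfh arrays, and Nebl is the gene whose Venus-high arrays lie below its Venus-low arrays.

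Trpm6 (probe set 1438877_at) was near the bottom of the scale in naive and PD1-low cells and at like levels in all 3 CXCR5+ groups. Its signals (log2) were 2.37 and 2.19 in naive cells, 2.19 and 2.52 in PD1-low cells, 10.84 and 10.47 in PD1-intermediate cells, 10.49, 10.20 and 11.32 in Venus-low Tfh and 10.49, 11.04 and 11.28 in Venus-high Tfh. The 4 arrays without the CXCR5+ gate were all low and the 8 arrays with it all high, and the arrays of the 3 CXCR5+ groups overlapped. From PD1-low to PD1-intermediate cells the CXCR5 and PD1 gates change together, so they cannot be told apart at that step. The group mean differed by 8.30 between PD1-intermediate and PD1-low cells, and by 8.13 within set 3, which is at least 50.3-fold when log2 5 is taken as the level of the low group. The means of neighbouring CXCR5+ groups differed by 0.02 and 0.27.

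Nebl (probe set 1439897_at) had its highest level in PD1-intermediate cells. Its signals were 2.95 and 2.28 in naive cells, 2.24 and 2.89 in PD1-low cells, 12.29 and 11.64 in PD1-intermediate cells, 10.08, 8.57 and 11.50 in Venus-low Tfh and 5.89, 5.58 and 7.36 in Venus-high Tfh. PD1-intermediate cells exceeded PD1-low cells by 9.39, and by 9.07 within set 3, which is at least 125-fold over log2 5. From there the means were lower at each later step, by -1.91 in Venus-low Tfh and by a further -3.77 in Venus-high Tfh, with no overlap of arrays at either step. Within set 3 the difference between Venus-low Tfh and PD1-intermediate cells was -0.46, so the first of these steps was small where the arrays shared a set. The levels thus ran from PD1-intermediate through Venus-low and Venus-high Tfh down to PD1-low and naive cells, and the last 2 groups overlapped.

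Vdr (probe set 1418176_at) had 2 large steps. Its signals were 2.50 and 3.47 in naive cells, 3.74 and 2.66 in PD1-low cells, 7.56 and 7.57 in PD1-intermediate cells, 10.89, 11.29 and 11.66 in Venus-low Tfh and 12.76, 13.50 and 12.96 in Venus-high Tfh. PD1-intermediate cells exceeded PD1-low cells by 4.37, at least 5.92-fold over log2 5, and Venus-low Tfh exceeded PD1-intermediate cells by 3.71. With values below log2 5 set to that floor the first step was 2.56, smaller than the second, so which of the 2 is larger depends on values that have no order. Arrays of neighbouring groups did not overlap at any step from PD1-low cells on, while naive and PD1-low arrays did.

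Gpm6b (probe set 1423091_a_at) did not start near the bottom of the scale. Its signals were 6.68 and 7.89 in naive cells, 7.65 and 9.24 in PD1-low cells, 11.81 and 11.89 in PD1-intermediate cells, 12.05, 12.46 and 13.34 in Venus-low Tfh and 12.61, 13.34 and 14.14 in Venus-high Tfh. All 12 arrays were above log2 5, so the gene was detected in naive and PD1-low cells. Its description as gained in CXCR5+ cells does not hold for this probe set. PD1-intermediate cells exceeded PD1-low cells by 3.40, a 10.6-fold difference, and by 2.61 within set 3. The arrays of the 2 Tfh groups overlapped.

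Lgals3 (probe set 1426808_at) was the gene with the sharpest change between PD1-intermediate cells and Tfh. Its signals were 2.25 and 2.24 in naive cells, 2.34 and 2.14 in PD1-low cells, 2.86 and 3.22 in PD1-intermediate cells, 10.52, 11.32 and 10.62 in Venus-low Tfh and 10.61, 9.68 and 9.81 in Venus-high Tfh. The 6 Tfh arrays were bright and overlapped between the groups, and all other arrays, CXCR5+ PD1-intermediate cells included, were below log2 5. The step of 7.78 was at least 56.5-fold over log2 5, and it was 7.58 within set 3.

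Nrbp2 (probe set 1424544_at) and Cxxc5 (probe set 1448960_at) had the same step and went on from it. Nrbp2 signals were 3.16 and 3.27 in naive cells, 2.28 and 2.56 in PD1-low cells, 3.54 and 3.49 in PD1-intermediate cells, 10.06, 8.72 and 10.49 in Venus-low Tfh and 11.70, 11.31 and 12.42 in Venus-high Tfh. Cxxc5 signals were 3.28 and 5.62 in naive cells, 4.89 and 3.70 in PD1-low cells, 3.76 and 3.50 in PD1-intermediate cells, 8.50, 8.54 and 10.62 in Venus-low Tfh and 12.49, 12.68 and 13.00 in Venus-high Tfh. Both were below log2 5 in both PD1-intermediate arrays, and Cxxc5 reached it in 1 naive array of set 2. Venus-low Tfh exceeded PD1-intermediate cells by 6.24 for Nrbp2 and 5.59 for Cxxc5, and within set 3 by 6.98 and 6.99.

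Padi4 (probe set 1422760_at) and Cd68 (probe set 1449164_at) climbed over several sorts. Padi4 signals were 2.41 and 3.38 in naive cells, 3.62 and 2.79 in PD1-low cells, 6.80 and 4.57 in PD1-intermediate cells, 11.38, 9.55 and 10.64 in Venus-low Tfh and 13.73, 13.08 and 13.01 in Venus-high Tfh. The PD1-intermediate arrays lay on both sides of log2 5, so that at this level Padi4 was on in 1 of 2 of them, and the largest step was the 4.83 to Venus-low Tfh, or 4.95 within set 3. Cd68 signals were 3.89 and 4.06 in naive cells, 5.72 and 4.66 in PD1-low cells, 6.82 and 6.21 in PD1-intermediate cells, 8.58, 8.08 and 8.79 in Venus-low Tfh and 9.26, 9.20 and 8.83 in Venus-high Tfh. Its 4 steps were 1.21, 1.32, 1.97 and 0.61, and the arrays of neighbouring groups did not overlap at any of them. No step of its group means reached 2 log2 units, but the step to Venus-low Tfh was 2.28 within set 3, 2.52 with the arrays quantile normalized again, 2.17 without Venus-low replicate 2 and 2.27 without PD1-intermediate replicate 1. The naive arrays and 1 PD1-low array lay below log2 5, where values have no order.

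**Figure D2:**
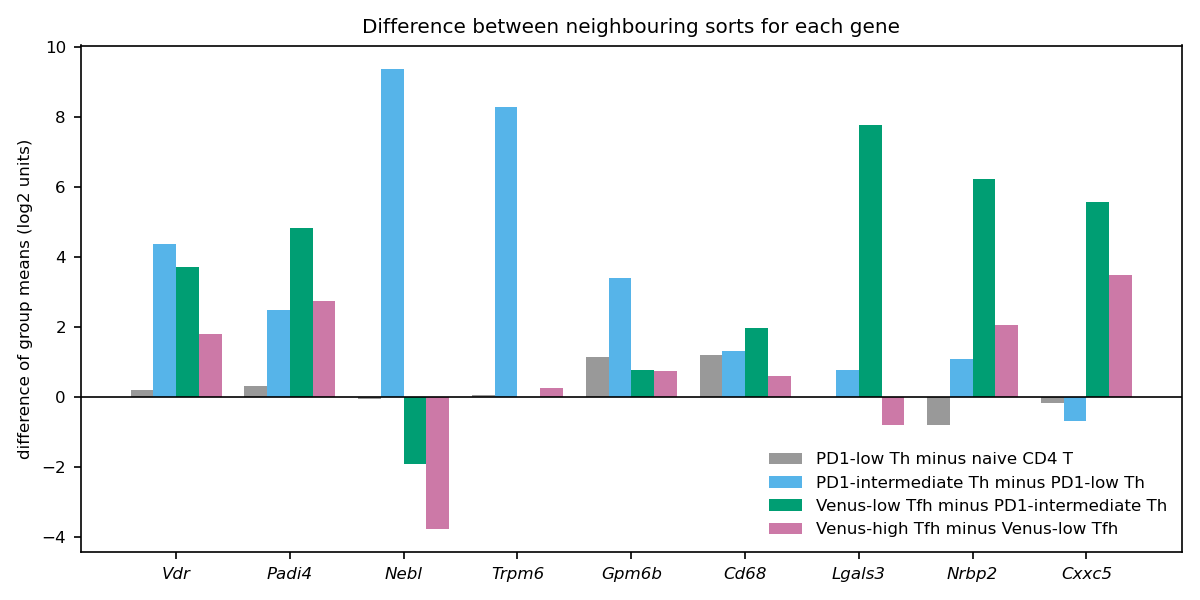
Difference between neighbouring group means in log2 units (vertical axis) for each of the 9 genes (horizontal axis), with 1 bar for each of the 4 steps, naive to PD1-low to PD1-intermediate to Venus-low to Venus-high. Trpm6 and Nebl have their tallest bar at the PD1-intermediate step (8.30 and 9.39), Lgals3, Nrbp2 and Cxxc5 at the Venus-low step (7.78, 6.24 and 5.59), and the bars of Cd68 are between 0.61 and 1.97.

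Steps of at least 2 log2 units upward without overlap of arrays were counted for the 9 genes and for all genes tested. From naive to PD1-low cells the count was 0 of 9, where 2.01% of all genes had such a step. From PD1-low to PD1-intermediate cells it was 5 of 9 (Vdr, Padi4, Nebl, Trpm6 and Gpm6b) beside 6.88% of all genes. From PD1-intermediate cells to Venus-low Tfh it was 5 of 9 (Vdr, Padi4, Lgals3, Nrbp2 and Cxxc5) beside 1.61% of all genes. Steps of that size downward were 0 of 9 at each of these steps, beside 0.697%, 1.63% and 2.6% of all genes. Arrays of neighbouring groups did not overlap, in either direction, for 2, 8 and 8 of 9, beside 33.6%, 53.1% and 40.3% of all genes. Part of these counts rests on signals below log2 5, which have no order, as for Lgals3 and Nrbp2 from PD1-low to PD1-intermediate cells. These contrasts chose the genes, so nothing is read from their counts.

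RefSeq promoter windows (GRCm38.p6) were matched by symbol for 7 of the 9 genes, not for Nrbp2 and Cxxc5. For 5 genes a window held the 200 bases just before the start of the RefSeq gene model, and those bases are printed 5′ to 3′ on the gene's strand, so that genes of both steps can be set side by side. Capitals mark E boxes, the letters CANNTG that E proteins and Ascl2-type factors can bind. The first pair are genes whose largest step was at PD1-intermediate cells, the other 3 at Venus-low Tfh.
Vdr, chr15:97908297-97908496, minus strand: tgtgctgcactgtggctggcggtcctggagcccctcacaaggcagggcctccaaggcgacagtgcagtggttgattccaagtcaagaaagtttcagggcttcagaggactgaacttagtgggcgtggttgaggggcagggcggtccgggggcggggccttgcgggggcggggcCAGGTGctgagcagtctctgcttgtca
Gpm6b, chrX:166238743-166238942, plus strand: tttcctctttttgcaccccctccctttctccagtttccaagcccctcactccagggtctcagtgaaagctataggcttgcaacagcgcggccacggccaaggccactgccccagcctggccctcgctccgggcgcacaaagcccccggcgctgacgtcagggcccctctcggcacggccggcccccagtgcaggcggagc
Lgals3, chr14:47373660-47373859, plus strand: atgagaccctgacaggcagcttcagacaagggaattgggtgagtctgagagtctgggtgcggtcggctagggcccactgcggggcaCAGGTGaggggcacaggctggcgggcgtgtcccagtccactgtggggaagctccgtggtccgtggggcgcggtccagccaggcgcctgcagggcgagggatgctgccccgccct
Padi4, chr4:140774240-140774439, minus strand: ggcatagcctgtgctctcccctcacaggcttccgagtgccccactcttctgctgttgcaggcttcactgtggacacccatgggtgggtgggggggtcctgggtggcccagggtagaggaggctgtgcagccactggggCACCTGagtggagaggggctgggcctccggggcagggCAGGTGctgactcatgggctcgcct
Cd68, chr11:69666171-69666370, minus strand: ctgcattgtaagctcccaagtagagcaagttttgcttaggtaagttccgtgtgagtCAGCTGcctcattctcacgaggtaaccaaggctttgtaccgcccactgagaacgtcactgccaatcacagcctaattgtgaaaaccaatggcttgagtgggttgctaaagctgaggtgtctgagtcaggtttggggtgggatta
The sequences hold 8, 13, 12, 3 and 4 CpG in this order, and the E boxes number 1, 0, 1, 2 and 1. In the 250 bases before each RefSeq start, read on both strands, CANNTG was found for 6 of the 7 genes, all but Gpm6b. Counted by windows it was found in 7 of the 10 of these genes and in 66.2% of all 32851. Its form CAGCTG was found for Cd68 and Trpm6 (13% of all windows), the AP-1 letters TGANTCA for Cd68 and Padi4 (6.75%), the NFAT core GGAAAA for Trpm6 (20.4%) and TTCNNNGAA, a core of STAT and Bcl6 sites, for 0 (7.02%). These matches are descriptions of the letters, and whether they go with the step was not tested in these 7 genes.

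Venus-high against Venus-low Tfh was the comparison of neighbouring sorts that the choice of genes had not turned on, although signals of both groups entered that choice, and it asks whether the genes go with the S1pr2 reporter within Tfh. Vdr, Padi4, Nrbp2, Cxxc5 and Cd68 were higher and Nebl lower in Venus-high Tfh in 3 of 3 pairs of equal replicate number. The arrays of these genes did not overlap between the Tfh groups, but the smallest pair difference of Cd68 was 0.03. In limma over all 12 arrays, without a pair or set term, 0 of the 9 genes passed at an adjusted p under 0.05. Of all genes 1.31% did. At an unadjusted p under 0.05 were 6 of the 9, beside 949 of all 9893 genes. The Tfh arrays of equal number also shared a set, and their deviations from the group means correlated across genes by 0.914, 0.945 and 0.915, so the pairs were also used as a block. With the block, on the 6 Tfh arrays, 6 of 9 genes passed, 5 higher and 1 lower, beside 10.1% of all genes. With the array set as a term over all 12 arrays 5 of 9 passed, 4 higher and 1 lower, beside 16.9% of all genes.

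Cxxc5 differed by 3.50 ± 0.72 (SE, n = 3 and 3; adjusted p = 0.0638), or 11.3-fold, and by 3.98, 4.14 and 2.38 within pairs 1, 2 and 3. It rose with the block (adjusted p = 0.0283) and with the set term (adjusted p = 0.013). Padi4 differed by 2.75 ± 0.66 (adjusted p = 0.107), 6.75-fold, and by 2.36, 3.53 and 2.38 within pairs, and rose with the block (adjusted p = 0.0251) and the set term (adjusted p = 0.0374).

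Nrbp2 differed by 2.05 ± 0.45 (adjusted p = 0.0829), 4.15-fold, and by 1.65, 2.59 and 1.93 within pairs, and rose with the block (adjusted p = 0.0251) and the set term (adjusted p = 0.00678). Vdr differed by 1.80 ± 0.39 (adjusted p = 0.0724), 3.47-fold, and by 1.87, 2.22 and 1.30 within pairs, and rose with the block (adjusted p = 0.0279) and the set term (adjusted p = 0.00549). In these 4 genes the Venus-high arrays were the brightest of the 12. Nebl differed by -3.77 ± 0.73 (adjusted p = 0.0506), 13.7-fold lower, and by -4.19, -2.99 and -4.14 within pairs, and fell with the block (adjusted p = 0.0176) and the set term (adjusted p = 0.00311). Its Venus-high arrays remained above log2 5. Over the alternatives the adjusted p ranged from 1.07e-04 to 0.485 for Cxxc5, 0.0143 to 0.787 for Padi4, 2.25e-04 to 0.395 for Nrbp2, 9.94e-05 to 0.423 for Vdr and 4.69e-04 to 0.39 for Nebl. Nebl passed without Venus-low replicate 2 (adjusted p = 0.0433), and Cxxc5 passed without Venus-low replicate 3 (adjusted p = 0.0427).

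The other 4 genes differed less between the Tfh groups. Gpm6b differed by 0.75 ± 0.58 (adjusted p = 0.983, 95% interval -0.56 to 2.05) and by 0.56, 0.88 and 0.80 within pairs, and rose with the block (adjusted p = 0.0358), while the set term gave an adjusted p of 0.0562, in a range of 0.0269 to 1 over the alternatives. Cd68 differed by 0.61 ± 0.33 (adjusted p = 0.714, 95% interval -0.14 to 1.36), and by 0.68, 1.11 and 0.03 within pairs. Lgals3 differed by -0.79 ± 0.31 (adjusted p = 0.412, 95% interval -1.49 to -0.08), and its pairs went both ways, with 0.09, -1.64 and -0.81. Trpm6 differed by 0.27 ± 0.33 (adjusted p = 1, 95% interval -0.48 to 1.02), and its pairs gave 0.01, 0.84 and -0.04. For Cd68, Lgals3 and Trpm6 neither the block nor the set term gave a call, and the intervals hold differences of about 1 log2 unit.

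**Figure D3:**
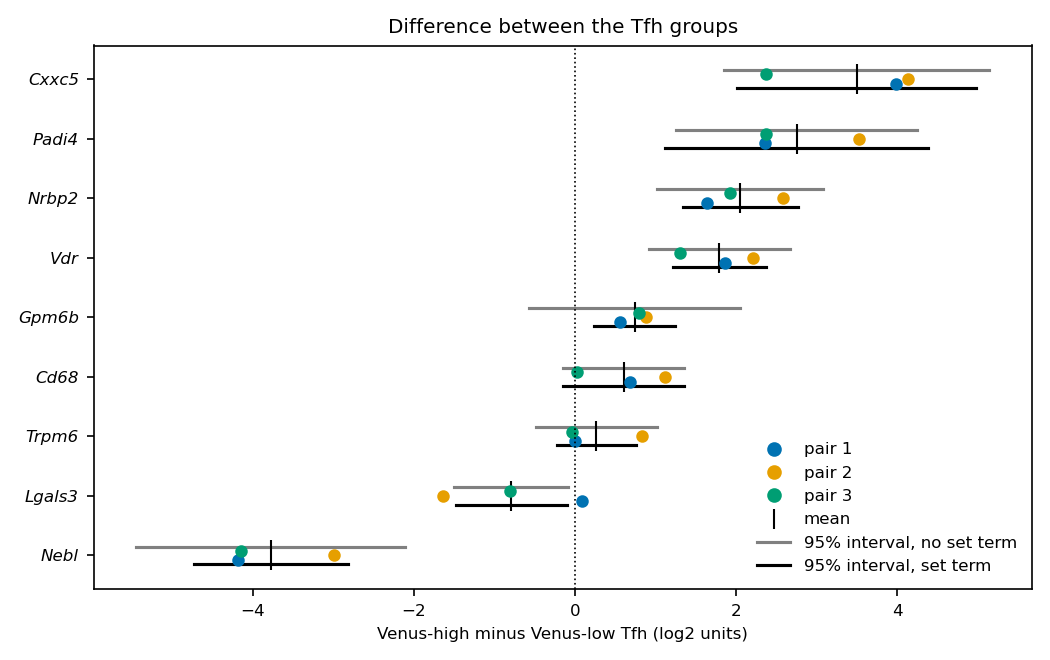
Venus-high minus Venus-low Tfh in log2 units (horizontal axis) for each of the 9 genes (vertical axis), with points for the 3 pairs of equal replicate number, a tick for the mean and the 95% interval without (grey) and with (black) the array set as a term. Cxxc5, Padi4, Nrbp2, Vdr, Gpm6b and Cd68 lie above 0 in every pair, Cd68 by 0.03 in pair 3. Nebl lies below 0 in every pair, and the pairs of Lgals3 and Trpm6 lie on both sides of 0.

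Counted by arrays alone, 6 of 9 genes had no overlap between the Tfh groups, beside 10.9% of all genes. A difference of at least 2 log2 units without overlap was seen upward for 3 of 9 (Padi4, Nrbp2 and Cxxc5) beside 0.687% of all genes and downward for 1 of 9 (Nebl) beside 1.91%. The median difference of the 9 genes was 0.75, and that of all genes was 0.02. Signals of both Tfh groups entered the choice of the genes, so nothing is read from these counts or medians.

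The step at which a gene appeared depended on its probe set. Of the 9 genes 4 had 1 probe set, 3 had 2 and 2 had 3, and 6 other probe sets passed the filter. For 1 of these 6 the largest step was the same as for the probe set used, and for 5 it was another. The second Vdr probe set, 1418175_at, read 2.20 and 2.21 in PD1-intermediate cells and 7.60, 8.04 and 8.24 in Venus-low Tfh, so by it Vdr was low until the Tfh gate. Its Venus-high arrays read 9.86, 10.58 and 9.67, and the pair differences of 2.26, 2.55 and 1.43 had the direction of the first probe set. The Gpm6b probe set 1453514_at read 2.67 and 3.86 in PD1-intermediate cells, then 7.76, 5.26 and 7.19 in Venus-low and 8.76, 5.82 and 9.57 in Venus-high Tfh. By this probe set Gpm6b was below log2 5 in every array before the Tfh gate.

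A second Trpm6 probe set, 1427642_at, read 5.24 and 5.25 in PD1-intermediate cells, and its Tfh signals went with the array set, at 9.72 and 9.10 in set 1, 7.13 and 6.68 in set 2 and 5.64 and 5.68 in set 3. The part of the set in that pattern was not tested, and by this probe set the sharp step of Trpm6 from PD1-low to PD1-intermediate cells was not seen. The Nebl probe set 1438452_at had the pattern of the first, with 9.66 and 9.67 in PD1-intermediate cells, 6.28, 2.92 and 9.35 in Venus-low and 2.56, 2.25 and 5.71 in Venus-high Tfh. Its set 2 Tfh arrays were low, while the displaced probe set 1451846_at was bright on those 2 arrays alone, at 10.88 in Venus-low and 8.12 in Venus-high Tfh, and at most 2.48 on the others. The second Cxxc5 probe set, 1431469_a_at, was below log2 5 on all arrays but Venus-high replicates 2 and 3, at 5.65 and 6.99. Probe sets of a gene can read different transcripts or bind with different strength, which these values do not separate.

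**Figure D4:**
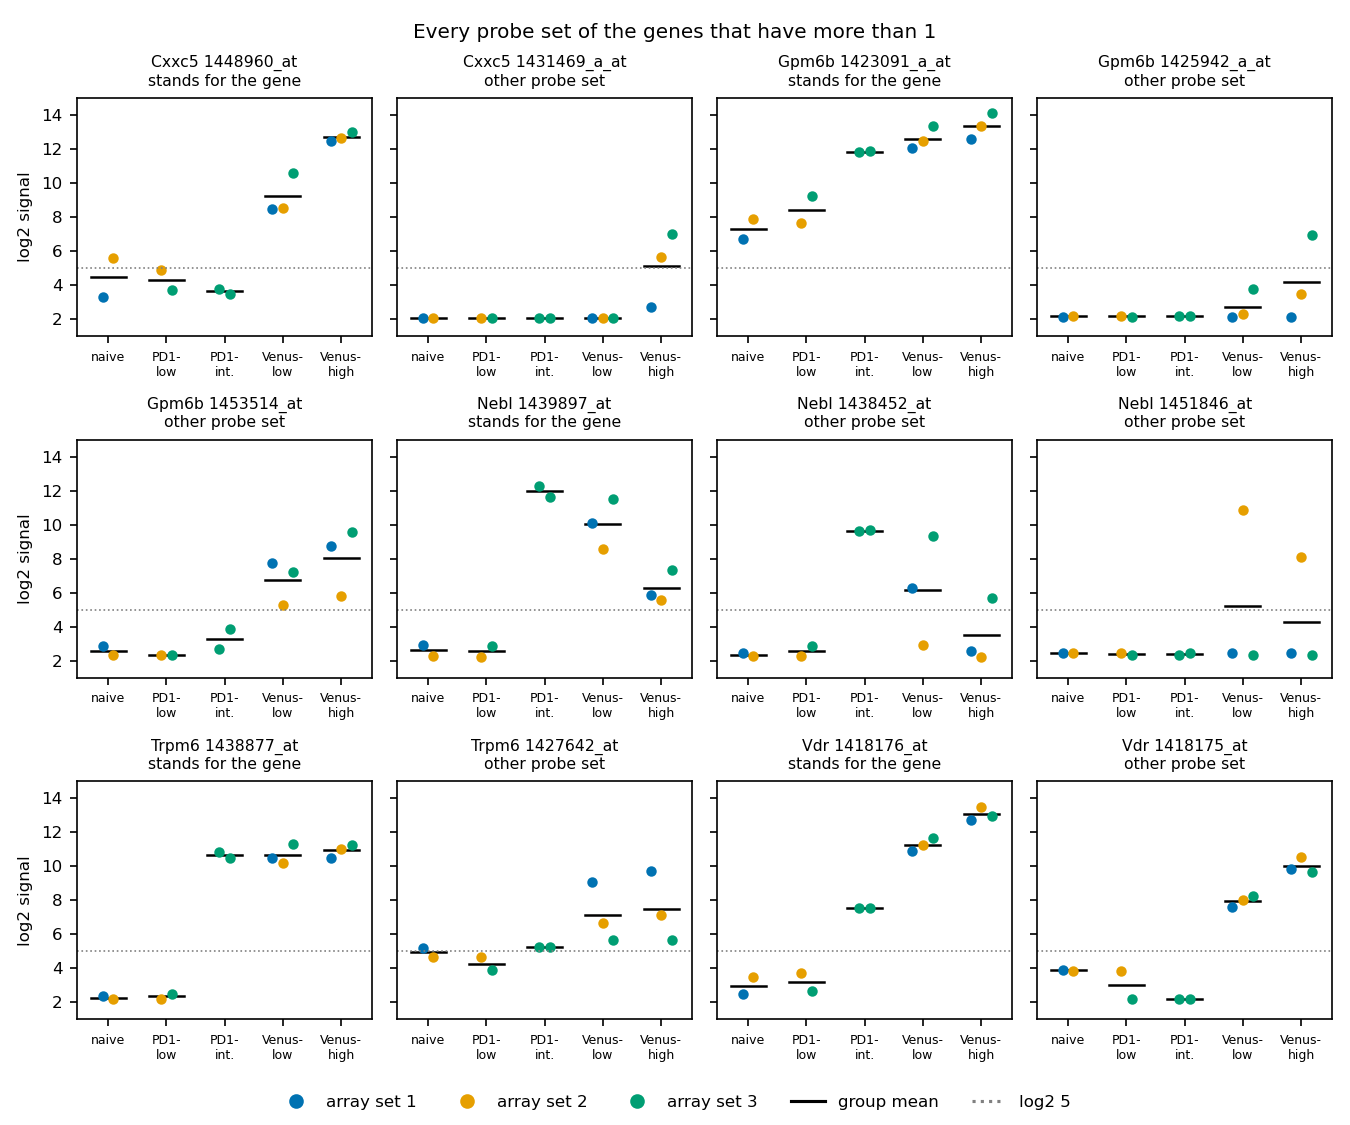
Log2 signal (vertical axis) of every probe set of the 5 genes with more than 1, on each array by sort (horizontal axis), with points coloured by array set, bars for group means and a dotted line at log2 5. The second probe sets of Vdr and Gpm6b are low in PD1-intermediate cells, and the displaced probe set of Nebl is above log2 5 in the set 2 Tfh arrays alone.

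Relatives and partners of the 9 genes were read from lists of paralogues, binding partners and pathway genes. Of 49 tested list genes 0 rose and 2 fell between the Tfh groups in limma, beside 0.435% and 0.879% of all genes, and 3 rose and 3 fell with the set term, beside 7.47% and 9.42%. The median difference of the 49 was -0.04, and that of all genes was 0.02. Among the peptidylarginine deiminases Padi2 was the 1 of 4 that reached the filter. It fell by 2.50 ± 0.44 (adjusted p = 0.0307), with means of 10.85, 10.71, 9.03, 7.71 and 5.21 from naive cells to Venus-high Tfh, where Padi4 was brightest. Padi1, Padi3 and Padi6 were at most 4.21, 2.71 and 3.95.

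In the vitamin D list 8 of 18 genes were tested and 0 were called in either fit. Rxrb, a partner receptor of Vdr, had means between 11.79 and 12.23. The vitamin D hydroxylases Cyp27b1 and Cyp24a1, of which the second is a classic Vdr target, were at most 2.08 and 2.24 on any array. In the nebulin and actin list 7 of 11 were tested, and Actn1, an actin crosslinker, fell by 1.77 ± 0.27 (adjusted p = 0.0186), with means of 13.27, 13.33, 12.73, 11.43 and 9.66. Lasp1, another nebulin family member, had means between 13.46 and 13.67, and Neb and Nrap stayed below log2 5.

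In the TRPM and magnesium transport list 8 of 18 genes were tested, 0 were called in the fit without a set term, and Mrs2, a mitochondrial magnesium channel, rose with it (0.33, adjusted p = 0.0361). Trpm7, the closest relative of Trpm6, had means between 10.75 and 11.59. Trpm4, a sodium-conducting relative, had means of 5.86, 7.52, 9.53, 8.49 and 8.16, the highest in PD1-intermediate cells as for Nebl. Both PD1-intermediate arrays lay in set 3, and this order was not read within that set. Of the galectins 5 of 8 were tested, and Lgals9 fell with the set term (-0.44, adjusted p = 0.0497), while Lgals1 had means between 14.46 and 15.79. In the LAMP family, to which Cd68 belongs, Lamp1 rose with the set term (0.43, adjusted p = 0.0204) and Lamp2 differed by 0.31 ± 0.33 (adjusted p = 1). Plp2 was the 1 tested gene of the proteolipid list, at -0.53 ± 0.36 (adjusted p = 0.905), and Gpm6a was at most 2.82.

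In the list of nuclear receptor binding pseudokinases and partners 6 of 6 genes were tested and 0 were called in either fit. Nrbp1, the paralogue of Nrbp2, had means between 9.65 and 10.18. Tsc22d3, a glucocorticoid-induced gene, had means of 10.56, 10.37, 6.80, 6.89 and 6.15. Among the CXXC proteins 11 of 12 were tested, and Cxxc1 rose with the set term (0.38, adjusted p = 0.0371). Tet1, a methylcytosine dioxygenase with a CXXC domain, had means of 6.70, 7.86, 4.02, 3.55 and 2.39, and Cxxc4, the closest relative of Cxxc5, was at most 2.64. Rxra, Trpm1, Slc41a1 and Tsc22d4 also spanned over 2 log2 units but were measured by displaced probe sets and are not described.

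Cd68, Lgals3 and Padi4 are best known from myeloid cells, so markers of such cells were read beside them. Of 20 macrophage and monocyte markers, 18 were below log2 5 on every array, among them Csf1r, Adgre1, Itgam, Lyz2, C1qa and Cd14, whose highest values were 2.38, 2.15, 2.22, 2.39, 2.10 and 2.04. The other 2 were Ctss, a cathepsin that many cells express, with 14.02 to 14.67 over the arrays, and Mpeg1, with group means of 2.19, 2.31, 2.45, 2.84 and 4.97 and a highest value of 7.03 in Venus-high replicate 3. The mean log2 signal of the 20 was 2.89 to 2.96 in naive cells, 2.86 to 2.94 in PD1-low, 2.88 to 2.90 in PD1-intermediate, 2.88 to 2.95 in Venus-low and 2.96 to 3.12 in Venus-high cells. The log2 of their summed signals was 14.16 to 14.22, 14.35 to 14.64, 14.64 to 14.67, 14.11 to 14.44 and 14.03 to 14.51 in the same order. Ctss alone reached 14.67, the same as the highest sum. Mpeg1 and Cd68 both had their highest means in Venus-high Tfh. The part of macrophages or monocytes in the Cd68 and Lgals3 signals was not tested.

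Of 10 measured neutrophil markers 8 were below log2 5 on every array, among them Mpo, Elane, Csf3r and Cxcr2, at most 2.09, 2.14, 2.06 and 2.21. S100a9 had its highest value, 6.30, in naive replicate 1 and Mmp9 its highest, 5.11, in PD1-intermediate replicate 1, and both group means were at most 3.24 in Venus-high Tfh, where Padi4 was brightest and S100a9 reached log2 5 on 1 array. The mean of the 10 was 2.54 to 2.77 in naive cells, 2.13 to 2.45 in PD1-low, 2.31 to 2.40 in PD1-intermediate, 2.12 to 2.39 in Venus-low and 2.13 to 2.47 in Venus-high cells. The log2 of their summed signals was 6.30 to 7.06, 5.46 to 6.21, 5.80 to 6.19, 5.44 to 5.92 and 5.45 to 6.33. The part of neutrophils in the Padi4 signal was not tested.

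Of 7 B cell markers 4 were below log2 5 on every array, and 1, Cd22, had group means of 2.78, 3.98, 9.72, 11.52 and 12.51, highest in Venus-high Tfh as for Vdr. Its part in the results was not tested. The log2 of the summed B cell markers was 5.19 to 6.46 in naive, 7.16 to 9.10 in PD1-low, 9.59 to 10.28 in PD1-intermediate, 10.73 to 12.29 in Venus-low and 12.17 to 13.01 in Venus-high cells. Cd22 alone reached 13.01 in Venus-high Tfh, the same as the highest sum. The mean log2 signal of the list was 2.36 to 2.99, 3.39 to 3.55, 3.95 to 3.96, 3.78 to 4.52 and 3.87 to 4.30 in the same order. Cd79b, a subunit of the B cell receptor, had means of 2.71, 7.41, 6.67, 5.05 and 3.20. Dendritic cell markers were below log2 5 on every array for 6 of 7 and stromal markers for 5 of 6, and of 4 CD8 and NK cell markers Eomes was the 1 that reached log2 8, with means of 2.58, 6.30, 5.85, 2.99 and 2.54.

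Of 5 regulatory T cell markers 2 were called between the Tfh groups, both lower in Venus-high Tfh as Nebl was, beside 0.879% of all genes. Foxp3, their lineage factor, fell (95% interval of the log2 difference -6.05 to -3.95, adjusted p = 0.00183) and Gpr83 fell by 3.99 ± 0.57 (adjusted p = 0.0134), while Il2ra differed by -4.88 ± 1.03 (adjusted p = 0.0669). Ikzf2 and Ctla4 differed by -0.01 ± 0.42 and 0.17 ± 0.89 (adjusted p = 1 for both). The mean of the 5 was 8.15 to 8.87 in naive, 11.35 to 12.77 in PD1-low, 11.29 to 11.55 in PD1-intermediate, 9.79 to 11.32 in Venus-low and 7.58 to 8.56 in Venus-high cells, and the log2 of their summed signals was 11.30 to 11.80, 13.83 to 15.14, 14.26 to 14.32, 13.47 to 14.66 and 13.28 to 14.40. Foxp3 had means of 9.18 and 11.93 in naive and PD1-low cells, where Nebl was low. The part of regulatory T cells in the Nebl difference was not tested.

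Markers of naive T cells, Ccr7, Il7r, Klf2, Lef1, Igfbp4 and S1pr1, were brightest on a naive or PD1-low array, and Ccr7 had means of 13.28, 13.24, 11.36, 8.95 and 3.71. Of the Tfh markers Bcl6 had 12.06, 12.32, 13.98, 14.18 and 14.82, Sh2d1a had means between 11.48 and 14.02, and Tox2 was measured by a displaced probe set. All 7 T cell markers were bright on every array, with a mean over the list of 13.64 to 14.15.

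**Figure D5:**
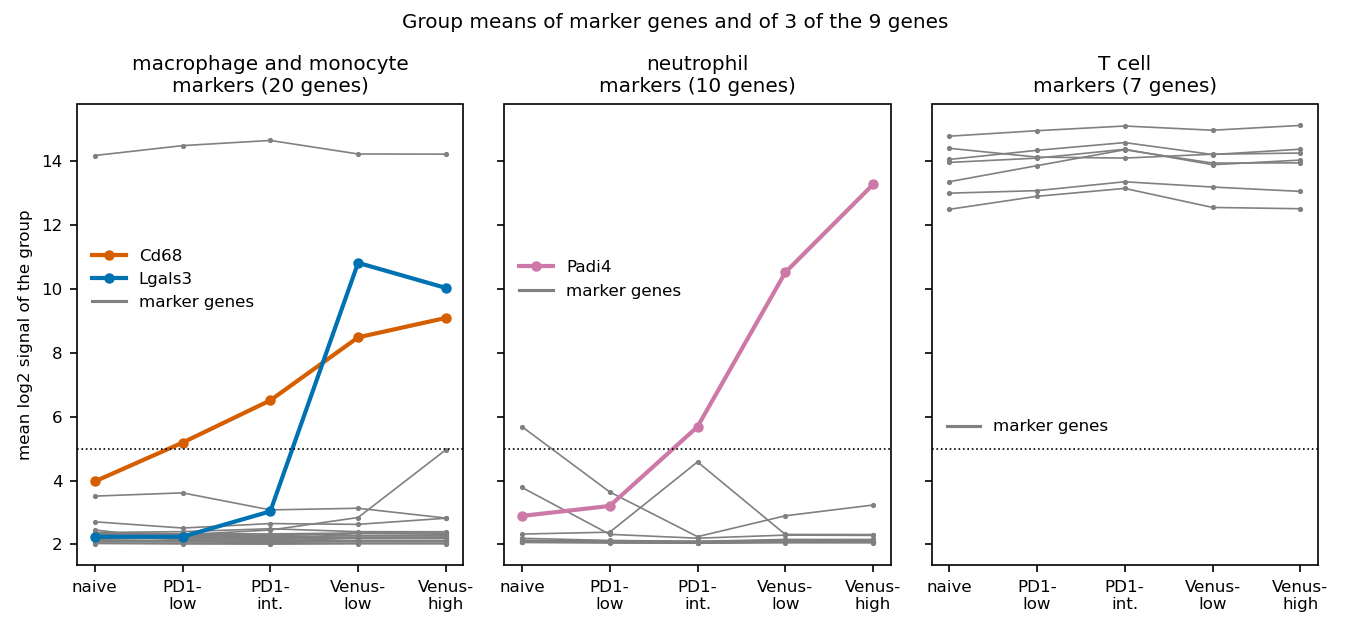
Group mean log2 signal (vertical axis) by sort (horizontal axis) of macrophage and monocyte, neutrophil and T cell marker genes (grey, 1 line per gene), with Cd68, Lgals3 and Padi4 in colour and a dotted line at log2 5; levels of different probe sets are not comparable, the shapes are. Of the 20 macrophage markers 18 stay below log2 5 on every array, and Mpeg1 has its highest mean in Venus-high Tfh, as Cd68 does. Of the 10 neutrophil markers 8 stay below log2 5 on every array. The part of other cells in the coloured genes was not tested.

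For each of the 9 genes the 3 genes with the most similar pattern were taken, by Pearson correlation over the 12 arrays among 2516 genes whose group means spanned at least 2 log2 units. The arrays share groups and sets, so the correlations are descriptions. Candidates above r = 0.95 numbered 140 for Gpm6b, 110 for Trpm6, 47 for Vdr and 30 for Padi4. They numbered 29 for Cd68, 24 for Nrbp2, 9 for Cxxc5 and 1 for Lgals3. For Nrbp2 and Cxxc5 the most similar gene was Ascl2, a transcription factor of Tfh cells, with r = 0.995 and r = 0.976 and group means of 2.42, 2.32, 2.66, 9.30 and 12.27. For Trpm6 the list was Il1r2, the decoy receptor of interleukin 1 (r = 0.999), Il21, the cytokine that Tfh cells give B cells (r = 0.997), and Cela1 (r = 0.997). Vdr was closest to Fam20a and Serpinf1 (r = 0.989 for both) and to Tnc (r = 0.986), and Padi4 to Dnase1l3 (r = 0.984), Rgs16 (r = 0.981) and Clip3 (r = 0.98).

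Nebl had no gene above r = 0.95, and its closest were Gpt2 and Npas2 (r = 0.943 for both) and Adam12 (r = 0.94). Adam12, a metalloprotease gene, had means of 2.17, 2.42, 10.02, 7.79 and 5.19, with its highest group mean also in PD1-intermediate cells. This order was not read within set 3, which held both PD1-intermediate arrays. Lgals3 was closest to Nrbp2 (r = 0.953), then Prelid2 (r = 0.938) and Nt5dc2 (r = 0.937), and Cd68 to 6430562O15Rik (r = 0.987), Slc16a3 (r = 0.98) and Vdr (r = 0.977). Gpm6b was closest to Smco4 and 6330403K07Rik (r = 0.992 for both) and to Atcay (r = 0.99). For Nrbp2 the next genes were Susd2 (r = 0.976) and Gstt3 (r = 0.975), and for Cxxc5 they were Kirrel3 and Cbfa2t3 (r = 0.975 for both). Among the 9 genes themselves the correlation over the arrays was highest between Vdr and Cd68 (r = 0.977) and lowest between Nebl and Cxxc5 (r = 0.143).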

How the data were processed

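The authors deposited log2 signals per probe set for 12 Affymetrix mouse arrays, made with GCRMA per the submitters' processing notes, which name no version. GCRMA adjusts background from probe sequence, normalizes quantiles and summarizes probes, so low values are compressed near log2 2. Values ran from 1.72 to 16.18. Which arrays were normalized together is not given in the sources used here. Of 45101 probe sets 34958 had 1 gene symbol, 932 several and 9211 none, and 34754 were matched to RefSeq by gene ID for current symbols.

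Probe sets that reached log2 5 on fewer than 2 arrays were dropped, and of the rest the brightest on average stood for the gene. All 12 arrays entered 1 limma 3.58.1 fit of 5 groups (R 4.3.3, 7 residual degrees of freedom), with a 2-sided test and Benjamini-Hochberg adjustment over 9893 genes. The fit was checked on simulated data without array sets or pairs, so that check does not bear on them. Array sets came from hierarchical clustering of the arrays' quantiles into 3. Tfh pairs share number, set and, per the labels, pool size. No 2 arrays were identical. The 9 genes, the lists and tests were chosen with earlier results of these data known. Named were all 9 genes, list genes called or spanning at least 2 log2 units (up to 4 a list), markers reaching log2 8 and the 3 most similar genes. Other relatives and markers were named for their levels after these were seen. Figures were drawn in Python 3.11.15 (matplotlib 3.10.9).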

Additional observations from a re-analysis of the deposited data

How the results depend on the processing

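The difference between the Tfh groups kept its sign under the alternatives in 8 of the 9 genes, and turned in Trpm6, to -0.015 without the 4 arrays of set 2, an alternative chosen after seeing the data. Of the 9 genes, 0 were called in the fit reported first. The count was 4 with values below log2 5 set to that floor, 3 with arrays quantile normalized again and 3 with arrays centred on their median, 2 with the mean of a gene's probe sets, 2 without displaced probe sets, 6 on the 6 Tfh arrays with the replicate block, 5 with the set as a fixed term, 5 with it as a random block and 9 with array weights, whose estimation stopped before it converged. Leaving out 1 array gave 0 to 1. Over all genes 130 of 9893 were called, and 33 to 152 leaving out 1 array. With values below log2 5 set to that floor 142 were called, and 156 with the mean of probe sets. Without displaced probe sets 166 of 9338 were called. The number was 412 quantile normalized again, 324 centred, 4 on the 6 Tfh arrays with no block and 1001 with the block. It was 1671 and 1808 with the set as a fixed term and random block, 2593 with array weights and 0 without set 2 (615 at an unadjusted p under 0.05). The count moved by over 1.5 times without any single array but Venus-low replicate 1 and both PD1-low arrays. Filters at log2 4, log2 6 or none, and a trend with a robust prior, called 0 of the 9. They called 135 of 10289, 119 of 9525, 107 of 18194 and 92 of 9893 genes in this order. At an unadjusted p under 0.05 were 5 to 6 of the 9, beside 984, 916, 1212 and 931 of all genes. The cause of these changes was not tested.

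Placing a gene at the first group with every array at log2 4 put 1 (Cd68) at PD1-low cells and 3 at Venus-low Tfh, and the first step of 2 log2 units without overlap also put 3 there. With the mean of probe sets 1 (Cxxc5) had its largest step to Venus-high Tfh, and Vdr moved to the Venus-low step (its step to PD1-intermediate cells was then 1.78). Vdr moved there also with values below log2 5 set to that floor (2.56) and with arrays quantile normalized again (3.78), which left 3 genes at the PD1-intermediate and 6 at the Venus-low step. Leaving out any array kept 4 and 5 genes at the 2 main steps. Signals below log2 5 have no order, and differences from such groups are bounded only from below.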
